A study of Mus musculus with 2 samples.

Results

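The nuclear genes for subunits of the mitochondrial respiratory chain were described in the embryonic mouse hindbrain (strain B6NCrl, age 10.5 days). Members were the protein-coding genes whose symbols name a subunit of complex I (Nduf followed by a, b, c, s or v and a digit), complex II (Sdha to Sdhd), complex III (symbols starting with Uqcr, and Cyc1) or complex IV (Cox4 to Cox8). The rule found 68 of 21474 protein-coding genes, with 37 in complex I, 4 in complex II, 9 in complex III and 18 in complex IV. Total RNA was sequenced from 2 pools of hindbrains with males and females together, 69 embryos in replicate 1 and 51 embryos in replicate 2, and each library started from 10 ng of RNA with synthetic spike-in RNAs added. The labels number the pools as biological replicates but give both the same donor ID, so the spread between them describes these 2 pools. The series held a single group, with no treatment, genotype or age to compare, so levels are described within the pools and no test between conditions was made.

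The respiratory chain passes electrons from food-derived carriers to oxygen and stores the energy as a proton gradient across the inner mitochondrial membrane. Complex I takes electrons from NADH and complex II from succinate, complex III hands them from ubiquinol to cytochrome c, and complex IV reduces oxygen to water. Most subunits are encoded in the nucleus and imported, and the rest are encoded by mitochondrial DNA, except in complex II, whose subunits are all nuclear. Several complex IV subunits come in pairs of paralogs, a form made in most tissues and a form known from heart and skeletal muscle, testis or lung.

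The expected counts over annotated genes summed to 38170090 for replicate 1 and to 36382245 for replicate 2. Levels are in TPM, the transcript abundance per length scaled to a fixed total per library. At an effective length of 1 kb, a count equalled 0.037 TPM in replicate 1 and 0.0413 in replicate 2. The 5 hindbrain region markers were all detected, at 15.8 to 37.2 TPM on average. Markers of cell types were detected too. The 6 neural progenitor markers summed to 2244 TPM in replicate 1 and 1877 in replicate 2. The 7 neuron markers summed to 1751 TPM in replicate 1 and 1105 in replicate 2. The 6 red blood cell markers summed to 14404 TPM in replicate 1 and 16294 in replicate 2. The 5 head mesenchyme markers summed to 508 TPM in replicate 1 and 434 in replicate 2. In bulk RNA of this kind, fewer cells of a type and less RNA per cell cannot be told apart.

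The respiratory chain subunit genes were among the higher genes of the hindbrain. Of the 68 members, 64 had at least 1 TPM in both pools, against 58.8% of all protein-coding genes. At least 100 TPM in both pools was reached by 56 of the 68 members and by 6.93% of all protein-coding genes. The median level was 249.9 TPM over the members and 19.7 TPM over the 12634 protein-coding genes at 1 TPM or more. Their sum was 2.37% of all gene TPM in replicate 1 and 2.20% in replicate 2. In counts the shares were lower, 0.910% in replicate 1 and 0.857% in replicate 2, and the members' median transcript length was 668 bases, against 2529 bases for the detected protein-coding genes. All 4 undetected members were tissue-limited paralogs of complex IV subunits, and all 60 members with no such limit (the broad members) averaged 39.7 TPM or more. For transcripts of up to 700 bases, the median was 400 TPM over 31 broad members. It was 159 TPM over the 330 protein-coding nuclear genes of that length past a filter on low counts, members included.

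**Figure D1:**
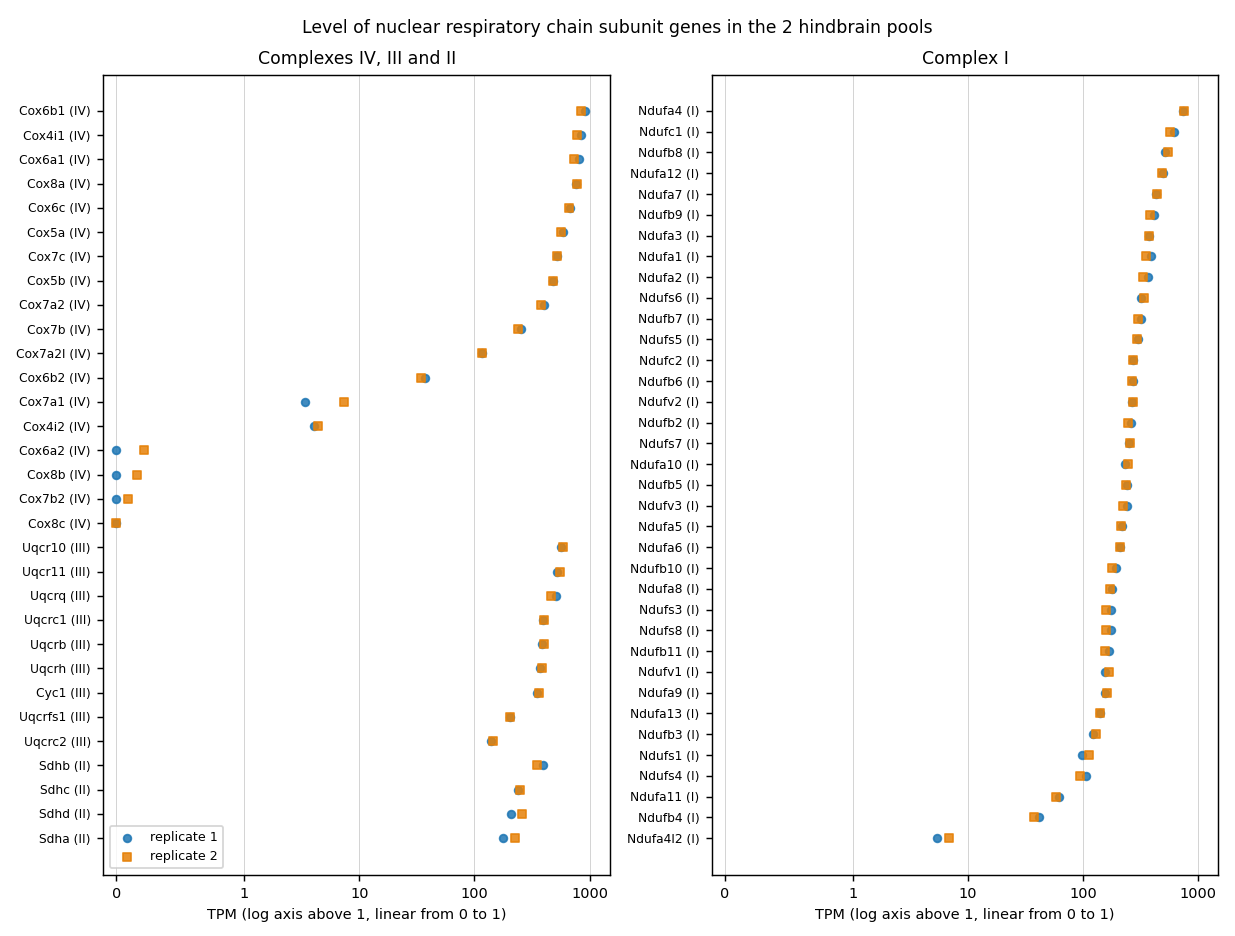
Level of the subunit genes reported by name, in TPM, in replicate 1 (circles) and replicate 2 (squares), with complexes IV, III and II on the left and complex I on the right, each sorted by mean level. The axis is logarithmic above 1 TPM and linear below. Except for Cox7a1 and genes near 0, the 2 pools lie close together, and 4 complex IV paralogs sit below 1 TPM.

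Complex IV (cytochrome c oxidase) held the highest members. Its nuclear subunits surround the catalytic core, which mitochondrial DNA encodes. Cox6b1, a subunit on the intermembrane side (chromosome 7, 30616861 to 30626151, mm10), had 916 TPM in replicate 1 and 843 in replicate 2, and ranked 93 of the 21474 protein-coding genes. Cox4i1, the broad isoform of the large subunit 4, had 847 TPM in replicate 1 and 778 in replicate 2. These values placed both genes above every member of the other complexes in each pool. The broad isoform Cox6a1 had 812 TPM in replicate 1 and 738 in replicate 2, so that it stood above the Ndufa4 gene of complex I in replicate 1 but not in replicate 2. Cox8a had 762 TPM in replicate 1 and 779 in replicate 2, and Cox6c had 679 TPM in replicate 1 and 663 in replicate 2. Cox8a stood below Cox4i1 and Cox6a1 in replicate 1 and above both in replicate 2, so its place among them cannot be given. The other broad complex IV genes fell between 116 and 579 TPM on average. The lowest was Cox7a2l, with 117 TPM in replicate 1 and 115 in replicate 2. Cox5a and Cox5b, subunits on the matrix side, averaged 579 ± 14.8 and 478 ± 0.460 TPM (SD, n = 2).

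In complex III (the cytochrome bc1 complex), small accessory subunits stood highest. Uqcr10 had 567 TPM in replicate 1 and 587 in replicate 2, Uqcr11 had 518 TPM in replicate 1 and 552 in replicate 2, and Uqcrq had 512 TPM in replicate 1 and 462 in replicate 2. Uqcrb had 383 TPM in replicate 1 and 404 in replicate 2, and the hinge subunit Uqcrh had 369 TPM in replicate 1 and 383 in replicate 2. The 5 small accessory genes had a median of 512 TPM in replicate 1 and 462 in replicate 2, against 274 and 282 TPM in replicates 1 and 2 for the other 4 members. In expected counts, with no length correction, the order turned, with medians of 4883 in replicate 1 and 4275 in replicate 2 for the small accessory genes, against 8578 and 7905 in replicates 1 and 2 for the other 4. Among those 4, the core protein Uqcrc1 had 395 TPM in replicate 1 and 403 in replicate 2, above the cytochrome c1 gene Cyc1 with 346 TPM in replicate 1 and 360 in replicate 2. The Rieske iron-sulfur protein Uqcrfs1 had 202 TPM in replicate 1 and 204 in replicate 2. Uqcrc2, the partner of Uqcrc1 in the core, was the lowest of the complex, with 140 TPM in replicate 1 and 144 in replicate 2. Uqcrc1 thus averaged 2.82 times the level of its partner, and was higher in both pools.

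Complex II (succinate dehydrogenase), the only member complex that also works in the citric acid cycle, had 4 genes within a 1.85-fold range of mean levels. The range was wider than this in replicate 1 and narrower in replicate 2. Sdhb, the iron-sulfur subunit, had 393 TPM in replicate 1 and 348 in replicate 2 and was the highest in both pools. The membrane anchors followed, with 238 TPM in replicate 1 and 247 in replicate 2 for Sdhc and 210 TPM in replicate 1 and 260 in replicate 2 for Sdhd. Sdha, the flavoprotein that binds succinate, had 177 TPM in replicate 1 and 224 in replicate 2. Sdhc and Sdhd changed places between the pools, so their order cannot be given.

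Complex I (NADH dehydrogenase), the largest complex, spanned a wide range, 18.9-fold from the lowest to the highest of its 36 broad members. Without Ndufb4, the lowest, whose level is uncertain because of a pseudogene, the range was 12.4-fold over 35 members. Ndufa4 led with 748 TPM in replicate 1 and 749 in replicate 2. It carries a complex I name, although its protein is known to bind complex IV. Next came Ndufc1 of the membrane arm, with 621 TPM in replicate 1 and 570.0 in replicate 2, and Ndufb8 of the same arm, with 516 TPM in replicate 1 and 545 in replicate 2. Ndufa12 and Ndufa7, also accessory subunits, had nearly the same level in both pools. Ndufa12 had 493 TPM in replicate 1 and 490.0 in replicate 2, and Ndufa7 had 434 TPM in replicate 1 and 437 in replicate 2.

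The 7 core subunits of complex I that are nuclear together hold the flavin and the iron-sulfur clusters of the peripheral arm. They lay between 106 and 269 TPM on average. Ndufv2 was the highest, with 265 TPM in replicate 1 and 273 in replicate 2. Ndufs7 had 250.3 TPM in replicate 1 and 256 in replicate 2. Ndufs3, Ndufs8 and the NADH-binding Ndufv1 averaged 168, 167 and 161 TPM, with SDs of 11.5, 11.5 and 8.24 TPM that exceed the gaps between them. Ndufs1, the largest core subunit, was the lowest core gene with 98.9 TPM in replicate 1 and 112 in replicate 2.

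The lowest broad complex I genes in each pool were the accessory genes Ndufb4 and Ndufa11. Ndufb4 had 41.6 TPM in replicate 1 and 37.7 in replicate 2, and Ndufa11 had 62.1 TPM in replicate 1 and 59.0 in replicate 2. Ndufs4, an accessory gene whose loss in mice is a model of Leigh syndrome, had 106 TPM in replicate 1 and 95.3 in replicate 2, above Ndufs1 in replicate 1 and below it in replicate 2, so the order of these 2 genes cannot be given. Ndufa11 was annotated with a transcript of 2661 bases, and its expected counts of 4303 in replicate 1 and 3661 in replicate 2 lay near the complex I medians of 4154 and 3661.

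Between complexes, the median level was highest in complex III, with 383 TPM for replicate 1 and 403 TPM for replicate 2, followed by complex IV, with 330.4 TPM for replicate 1 and 310.0 TPM for replicate 2. Complex II had medians of 224 TPM in replicate 1 and 253 in replicate 2, and complex I had 241 TPM in replicate 1 and 237 in replicate 2. The median of complex III was 1.59 times that of complex I in replicate 1 and 1.70 times in replicate 2. For complex IV over complex I the ratios were 1.37 in replicate 1 and 1.31 in replicate 2, and for complex II over complex I they were 0.930 in replicate 1 and 1.07 in replicate 2, on either side of equality. Without length correction complex II had the highest median, 8897 expected counts in replicate 1 and 8133 in replicate 2, against 5161 and 4808 for complex III, 5079 and 4500 for complex IV and 4154 and 3661 for complex I in replicates 1 and 2. The ratio of complex II over complex I was then 2.16, where it was 1.00 in TPM. The complex IV median mixes 11 broad genes with 7 paralogs that were undetected or lay far below their broad partners. The broad complex IV genes alone had the highest median of the complexes, 590 TPM in replicate 1 and 569 in replicate 2. Leaving out all tissue-limited paralogs raised the ratio over complex I to 2.42. The direction was not kept when TPM was summed over protein-coding transcripts alone with the paralogs in place (0.702) or when geometric means of TPM + 0.1 replaced the medians (0.205), while coding transcripts without the paralogs gave 2.52, an alternative chosen after the data were seen.

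The contrast between small accessory and larger catalytic subunits went with transcript length. In complex I the 29 broad accessory genes had a median of 262 TPM in replicate 1 and 247 in replicate 2, against 176 and 167 TPM in replicates 1 and 2 for the 7 core genes, which makes the ratio 1.48 in both pools. Without length correction the order turned, and the expected counts of the accessory genes had medians of 4121 in replicate 1 and 3625 in replicate 2, against 5509 and 5512 in replicates 1 and 2 for the core genes. Median transcript lengths were 634 bases for the accessory and 1051 bases for the core genes. Over the 60 broad members, Spearman's rho was -0.66 between length and mean TPM and 0.24 between length and expected count. These are descriptions across genes of the same 2 libraries, and the rho of length and TPM was -0.37 over 13148 protein-coding nuclear genes past a filter on low counts. Each deposited effective length was the length minus 99 bases, which raises the TPM of short transcripts relative to the full length. The order of accessory and core genes thus depended on the length correction.

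**Figure D2:**
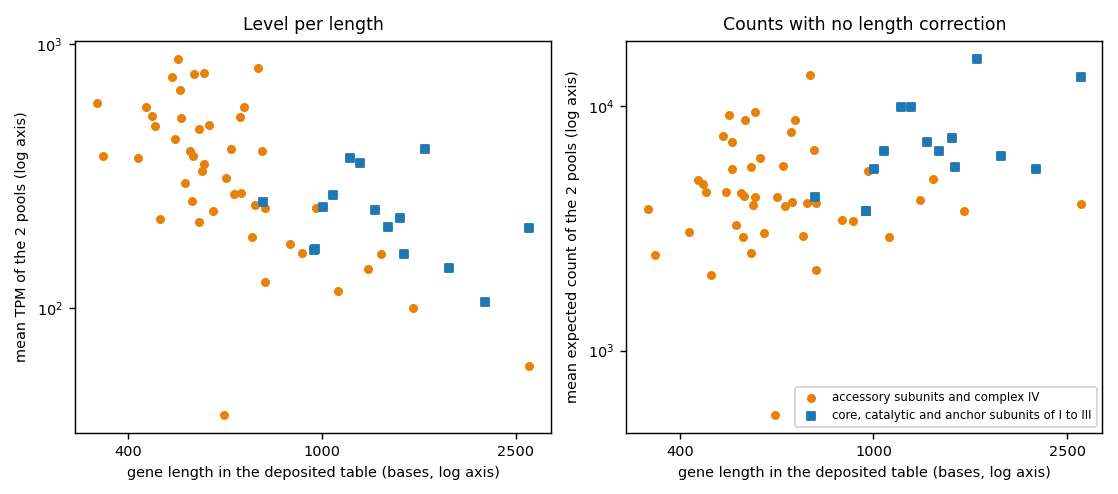
Mean level of the 60 broad subunit genes against their transcript length in the deposited table, in TPM (left) and in expected counts with no length correction (right), all axes logarithmic. Circles are accessory subunits and all complex IV genes, and squares are the core, catalytic and anchor subunits of complexes I to III. The squares mostly lie at lower TPM and longer lengths on the left and in the upper range of counts on the right.

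The tissue paralogs separated widely, with the broad form far above its tissue-limited partner in each of the 8 pairs and in both pools. Cox4i1 exceeded Cox4i2, a form known from lung and from hypoxic cells, 211-fold in replicate 1 and 179-fold in replicate 2. Cox4i2 itself had 4.01 TPM in replicate 1 and 4.34 in replicate 2, from 68 and 66 counts, and was the detected member of lowest mean level. Cox7a2 exceeded Cox7a1, the heart and muscle form, 121-fold in replicate 1 and 52.1-fold in replicate 2. The fold of mean levels was 73.8 in TPM and 186 in counts with no length correction. Ndufa4 exceeded Ndufa4l2, a gene known to be induced by hypoxia, 138-fold in replicate 1 and 109-fold in replicate 2, and here the fold of mean levels was 122 in TPM and 55.8 in such counts. Ndufa4l2 had 5.41 TPM in replicate 1 and 6.90 in replicate 2. It overlaps Shmt2 on the opposite strand, which had 70.4 TPM in replicate 1 and 88.2 in replicate 2, and the sources used here do not say whether strand entered the counting.

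The Cox6b pair was the closest. Cox6b2, known as a testis form (chromosome 7, 4751792 to 4753094, mm10), had 36.9 TPM in replicate 1 and 34.5 in replicate 2, from 412 and 341 counts. That left Cox6b1 24.8-fold higher in replicate 1 and 24.4-fold higher in replicate 2. Cox6b2 made up 3.87% of the summed TPM of the pair in replicate 1 and 3.93% in replicate 2. Its counts were spread over 9 transcripts in replicate 1 and 7 in replicate 2, of which the highest held 28.6% of the gene's TPM in replicate 1 and 24.8% in replicate 2. Protein-coding transcripts together held 73.7% in replicate 1 and 76.9% in replicate 2.

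The other paralogs were at or near 0. Cox8c, known from testis, had no count in either library, which allows up to 0.294 TPM in replicate 1 and 0.328 in replicate 2 at a limit of 3 counts per library, and the excess of Cox8a was therefore at least 2589-fold (replicate 1) or at least 2373-fold (replicate 2). Cox8b, a heart and muscle form, had 0 counts in replicate 1 and 1 count in replicate 2. Cox6a2, also a heart and muscle form, had 0 counts in replicate 1 and 3 in replicate 2 (0.22 TPM), against 10371 and 8457 counts in replicates 1 and 2 for its broad partner Cox6a1. Cox7b2, known from testis, had 0 counts in replicate 1 and 1 count in replicate 2, against 4339 and 3721 counts in replicates 1 and 2 for Cox7b. These floors and counts cover counting error only. The members just inside the detection level of 1 TPM were Cox4i2 and Cox7a1, and just outside it were Cox6a2 and Cox8b, so no member lay close to it.

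**Figure D3:**
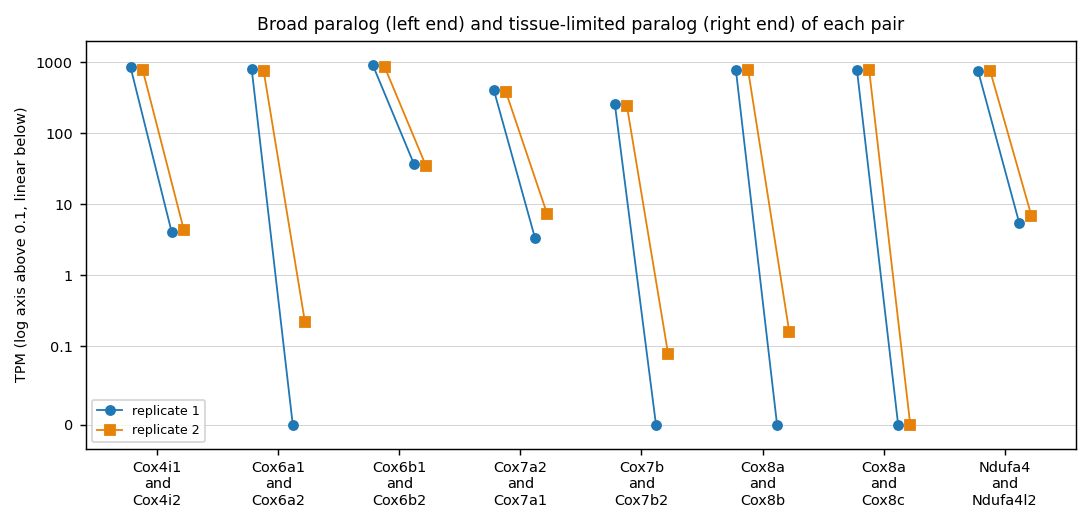
TPM of the broad paralog (left end of each line) and of the tissue-limited paralog (right end) for 8 pairs, in replicate 1 (circles) and replicate 2 (squares). The axis is logarithmic above 0.1 TPM and linear below. Every line falls steeply from left to right, least for Cox6b1 and Cox6b2.

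Cox7a1 was the member that differed most between the pools among those detected. It had 3.35 TPM in replicate 1 and 7.32 in replicate 2, from 24 and 47 counts, a TMM-scaled rate ratio of 0.484 with an exact 95% counting interval of 0.283 to 0.807. The interval makes no allowance for picking the gene with the largest difference. The counts were too few to pass the filter used for ratios between pools. The sum over 12 heart and skeletal muscle markers, of which 4 were detected, was also lower in replicate 1, with 14.4 TPM in replicate 1 and 38.7 in replicate 2. The atrial myosin light chain Myl7 had 2.11 TPM in replicate 1 and 12.35 in replicate 2, and Tnnt2 had 0.28 TPM in replicate 1 and 2.45 in replicate 2. Of the 12 markers, 9 had a lower TPM in replicate 1 and 2 a higher one. The higher ones were Des (3.57 TPM in replicate 1 and 3.16 in replicate 2) and Myog (0.27 TPM in replicate 1 and 0.12 in replicate 2). The muscle creatine kinase Ckm was listed at 0 in both. The part of such cells in the level of Cox7a1 was not tested.

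Promoter sequences are shown for broad and tissue-limited partners, since these differ most in level. RefSeq windows (GRCm38.p6, the mm10 assembly) run from 250 bases before to 50 bases after the annotated start, read 5′ to 3′ on the gene's strand, and were found for 53 of the 68 members. Capitals mark matches on either strand to GCGCA and GCGC spaced by any base (a relaxed form of the site of the respiratory regulator NRF1), CCGGAAG (the core site of ETS factors such as GABP, CTTCCGG when read on the other strand), ATGGCGG (YY1) and TATAAA (the TATA box). None of these motifs overlaps another within the windows printed.
Cox6a1 (chr5:115348909-115349208, minus strand): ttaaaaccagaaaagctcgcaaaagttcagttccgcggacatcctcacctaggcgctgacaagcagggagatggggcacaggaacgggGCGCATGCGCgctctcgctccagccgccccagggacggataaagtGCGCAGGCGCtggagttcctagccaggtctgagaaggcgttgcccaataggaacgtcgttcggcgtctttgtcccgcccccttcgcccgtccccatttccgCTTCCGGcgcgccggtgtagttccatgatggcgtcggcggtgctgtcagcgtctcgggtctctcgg
Cox6b1 (chr7:30626065-30626364, minus strand): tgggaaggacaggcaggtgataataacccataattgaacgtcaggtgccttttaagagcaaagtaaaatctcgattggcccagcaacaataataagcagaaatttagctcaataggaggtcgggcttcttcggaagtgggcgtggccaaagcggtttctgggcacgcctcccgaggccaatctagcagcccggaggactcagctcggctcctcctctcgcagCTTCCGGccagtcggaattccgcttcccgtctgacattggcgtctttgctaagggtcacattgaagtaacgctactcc
Cox6b2 (chr7:4753045-4753344, minus strand): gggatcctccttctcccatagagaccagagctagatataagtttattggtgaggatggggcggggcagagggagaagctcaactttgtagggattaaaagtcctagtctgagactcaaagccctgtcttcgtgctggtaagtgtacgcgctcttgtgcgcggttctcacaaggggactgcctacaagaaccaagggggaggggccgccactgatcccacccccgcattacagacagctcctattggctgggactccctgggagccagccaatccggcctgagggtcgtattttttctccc
Cox8a (chr19:7217567-7217866, minus strand): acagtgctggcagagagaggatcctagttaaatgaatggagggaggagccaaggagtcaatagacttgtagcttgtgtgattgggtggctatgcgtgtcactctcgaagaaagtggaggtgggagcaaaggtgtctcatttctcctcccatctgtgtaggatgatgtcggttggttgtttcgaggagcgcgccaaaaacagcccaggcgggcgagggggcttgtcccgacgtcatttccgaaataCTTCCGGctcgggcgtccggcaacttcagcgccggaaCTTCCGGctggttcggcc
Cox8b (chr7:140900397-140900696, minus strand): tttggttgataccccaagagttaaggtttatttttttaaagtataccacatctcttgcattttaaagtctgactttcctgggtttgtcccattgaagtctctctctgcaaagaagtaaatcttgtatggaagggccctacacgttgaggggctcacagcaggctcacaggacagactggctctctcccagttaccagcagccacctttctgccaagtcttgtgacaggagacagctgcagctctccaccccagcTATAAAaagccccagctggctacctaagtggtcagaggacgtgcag
The windows of the highly expressed Cox6a1, Cox6b1 and Cox8a each hold the ETS letters near the start, and that of Cox6a1 also holds a pair of NRF1 matches further upstream. The other broad partners with a window, Cox7a2, Cox7b and Ndufa4, hold none of the 4 motifs, so the ETS letters were in 3 of the 6 windows of broad partners. The window of Cox6b2 holds none of the 4 motifs, and that of Cox8b holds a TATA match that begins 4 bases after the annotated start.

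Over the members with a window, the relaxed NRF1 motif was present in 11 of 53 (20.8%), against 7.53% of the 16222 protein-coding genes with a window and 15.6% of the 1176 such genes at 100 TPM or more in both pools. The strict form, with T at the free position, reads the same on both strands and is included in the relaxed form. It was present in 3 members (5.66%), Cox6a1, Ndufa11 and Uqcrc1, against 1.54% of all genes and 3.23% of the genes at 100 TPM or more. CCGGAAG was present in 11 members (20.8%), against 13.5% of all genes and 28.5% of the genes at 100 TPM or more. ATGGCGG was present in 8 members (15.1%), against 6.27% and 13.4% of those sets. At least 1 of the 3 was present in 26 of 53 members (49.1%), in 23.5% of all genes and in 48.0% of the genes at 100 TPM or more. The members' share thus lay near that of the highly expressed genes, a set that includes the members at that level. None of the 4 tissue-limited paralogs with a window (Cox6b2, Cox7a1, Cox7b2 and Cox8b) held any of the 3. Their 4 windows had a median of 8.5 CpG dinucleotides (2 to 10). The median was 19 over all members with a window, 14 over all genes and 22 over the genes at 100 TPM or more. Broad members went as low as 5. A match of letters is a description of the window and shows no binding.

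Pseudogene copies were found for some members, and for 2 of these genes the pseudogene rows held a large part of the combined counts. A search of annotated transcripts for copies of each member's coding sequence (at least 90% identity over at least 80% of it, chosen after values had been seen) found 31 pseudogene copies of 20 members. In 18 of these members the copies held 1.21% or less of the combined counts in each pool. Ndufb4 and Cox7c were the exceptions.

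For Ndufb4 (chromosome 16, 37647170 to 37654453, mm10), the processed pseudogene Ndufb4c (chromosome 15, 73809507 to 73809896) was identical over all 387 coding bases. The first 300 of them are shown because reads that lie within them cannot be assigned to either gene, and there are no capitals since no base differs.
Ndufb4 and Ndufb4c: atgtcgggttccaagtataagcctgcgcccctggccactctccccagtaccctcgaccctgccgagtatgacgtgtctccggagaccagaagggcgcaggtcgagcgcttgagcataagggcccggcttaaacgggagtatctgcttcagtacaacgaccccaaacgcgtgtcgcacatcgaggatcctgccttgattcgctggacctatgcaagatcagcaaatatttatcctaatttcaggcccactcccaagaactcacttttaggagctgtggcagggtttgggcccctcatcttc
Ndufb4c was listed with 2175 counts in replicate 1 and 1689 in replicate 2, against 596 and 498 counts in replicates 1 and 2 for Ndufb4, so the pseudogene row held 78.5% of the combined counts in replicate 1 and 77.2% in replicate 2. The 2 rows together came to 318 TPM in replicate 1 and 277 in replicate 2, above the complex I median, where Ndufb4 alone was the lowest broad member. Ndufb4c is listed with a short transcript, and this order turned on the length used. With the combined counts of 2771 in replicate 1 and 2187 in replicate 2 taken at the effective length of the Ndufb4 row, the level was 193 TPM in replicate 1 and 166 in replicate 2, below the complex I medians. Within the Ndufb4 row, a retained-intron transcript held 67.6% of TPM in replicate 1 and 64.6% in replicate 2, and the coding transcript held 32.4% in replicate 1 and 35.4% in replicate 2. The rank of Ndufb4 therefore cannot be given from these tables.

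For Cox7c (chromosome 13, 86044816 to 86046904, mm10), the processed pseudogene Gm12338 (chromosome 11, 75599763 to 75599954) was identical over all 189 coding bases, shown here for the same reason.
Cox7c and Gm12338: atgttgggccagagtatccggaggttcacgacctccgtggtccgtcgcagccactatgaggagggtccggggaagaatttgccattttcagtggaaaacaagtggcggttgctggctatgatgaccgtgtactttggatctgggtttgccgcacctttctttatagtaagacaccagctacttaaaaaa
Gm12338 was listed with 584 TPM in replicate 1 and 641 in replicate 2, from 1467 and 1445 counts. Cox7c itself had 520.0 TPM in replicate 1 and 526 in replicate 2, from 5818 and 5279 counts. The higher TPM of Gm12338 on fewer counts goes with a transcript of 192 bases. The 4 pseudogene copies of Cox7c held 20.9% of the combined counts in replicate 1 and 21.9% in replicate 2, and the rows together came to 1113 TPM in replicate 1 and 1172 in replicate 2, more than Cox6b1. The combined counts, 7352 in replicate 1 and 6760 in replicate 2, were below those of Cox6b1, 10056 in replicate 1 and 8295 in replicate 2. At the effective length of the Cox7c row they gave 657 TPM in replicate 1 and 673 in replicate 2, less than Cox6b1, so the order depended on the length given to the pseudogene. With pseudogene TPM added to all members, the ratio of medians of complex IV over complex I was 1.34, as without it.

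**Figure D4:**
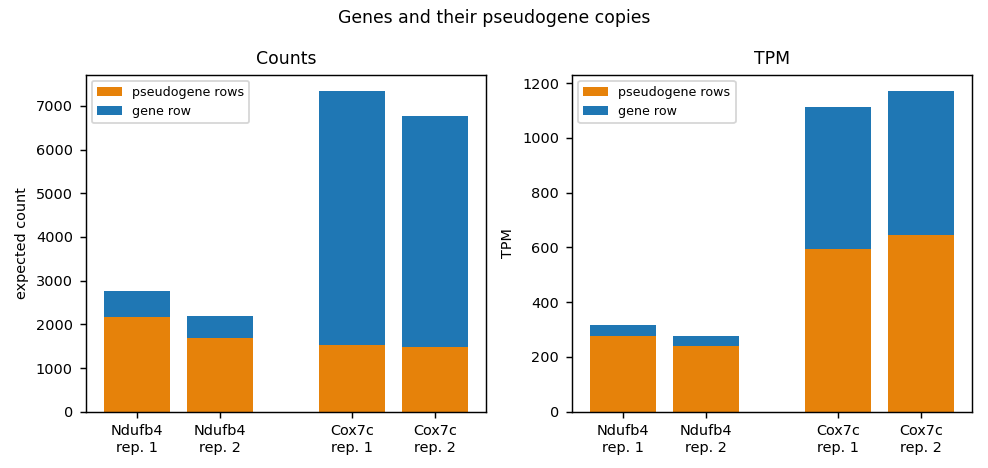
Expected counts (left) and TPM (right) listed for Ndufb4 and Cox7c (upper part of each bar) and for their pseudogene copies (lower part) in replicates 1 and 2. The pseudogene part makes up most of the Ndufb4 bars and, in TPM, over 50 percent of the Cox7c bars.

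The members' 242 annotated transcripts were used unevenly. Of the 64 detected members, 42 had more than 90% of their TPM in the same leading transcript in both pools. Of these 42, 22 had only 1 listed transcript, which fixes that share. The shares over other genes were not taken. The leading transcript was annotated as protein-coding in 60 of the 64. The exceptions were Ndufa5, Ndufa10, Ndufb4 and Cox5b. For Ndufa5, an accessory subunit of the peripheral arm, a processed transcript with no annotated coding sequence held 91.5% of TPM in replicate 1 and 90.9% in replicate 2, and coding transcripts held 8.46% in replicate 1 and 7.88% in replicate 2. For Ndufa10, coding transcripts held 17.1% in replicate 1 and 16.4% in replicate 2, with a retained-intron transcript in the lead at 28.8% in replicate 1 and 28.9% in replicate 2. For Cox5b they held 42.6% in replicate 1 and 40.1% in replicate 2, and for Cox7b, whose leading transcript was coding, 48.1% in replicate 1 and 49.3% in replicate 2. In Cox5b the leading processed transcript of 362 bases had 262 TPM in replicate 1 from 1863 counts, and the coding transcript of 865 bases had 181 TPM in replicate 1 from 3753 counts, so the order by counts was the reverse of that by TPM.

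Between the pools the members differed little. Ratios were taken as replicate 1 over replicate 2 on counts scaled by TMM, for genes that reached 1 CPM (a count scaled to library size) in both pools, and 63 members passed. None of the 63 was 2-fold or more apart, against 4.5% of 13148 protein-coding nuclear genes, and 61 lay within 1.2-fold, against 60.2% of those genes. Within 1.1-fold lay 38 members and 35.8% of those genes. Over the 3939 genes at or above the level of the lowest broad member the share within 1.2-fold was 74.8%, and the SD of the log2 ratio was 0.28, against 0.12 over the 63 members. The members outside 1.2-fold were Sdha and Ndufa4l2, with log2 ratios of -0.27 each. The filter required counts in both pools and left out Cox6a2, Cox7a1, Cox7b2, Cox8b and Cox8c, of which Cox7a1 had 24 and 47 counts. With 1 library on each side these ratios have no test.

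Directions between the pools are those of TMM-scaled counts, and with spike-in scaling no member was higher in replicate 1. Complex II held ratios of both signs. Sdha had a rate ratio of 0.828 (exact 95% counting interval 0.808 to 0.848) and Sdhd of 0.853 (0.825 to 0.882), both lower in replicate 1. Sdhb, in contrast, had a ratio of 1.19 (1.16 to 1.23) and was higher in replicate 1, with the highest log2 ratio of the members at 0.25. Sdhc had a log2 ratio of 0.08. These intervals cover counting error only, and the spread between pools that embryos or preparation add is not known from 2 libraries.

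In complex IV the 11 broad genes were all higher in replicate 1 in TMM-scaled counts (8 of the 11 on deposited TPM, none with spike-in scaling), by log2 ratios of 0.05 (Cox8a) to 0.22 (Cox6a1). Complex III lay close to 0 except for Uqcrq at 0.22, with the other 8 genes between -0.01 and 0.07. Complex I ranged from -0.27 (Ndufa4l2) to 0.25, and its core genes Ndufs1 and Ndufv1 were lower in replicate 1, with log2 ratios of -0.09 and -0.01, while Ndufs3 and Ndufs8 were higher by 0.24 and 0.22. Over the 63 members the median log2 ratio was 0.09, against 0.00 over all 13148 genes, and 53 were higher in replicate 1, against 50.6% of all genes. Genes of up to 700 bases leaned the same way, with a median of 0.04 and 194 of 330 higher in replicate 1. Of the 31 broad members of that length, 29 were higher, with a median of 0.11. On deposited TPM, 33 of the 63 were higher in replicate 1. Scaling to the spike-ins, which held 13.0% of all TPM in replicate 1 and 7.82% in replicate 2, moved the median of all genes by -0.82 and left the members' median 0.08 above it, with 0 of 63 higher in replicate 1 and 3 of 63 (Sdha, Sdhd and Ndufa4l2) 2-fold lower, where 25.8% of all genes were 2-fold apart. The 7 neuron markers were all higher in replicate 1 in the TMM-scaled counts, with a median log2 ratio of 0.87. Also higher were 5 of 6 neural progenitor, 5 of 5 head mesenchyme, 3 of 3 macrophage and 4 of 5 hindbrain region markers. In the other lists, 2 of 6 red blood cell, 2 of 4 endothelium, 1 of 2 muscle and 0 of 2 forebrain markers past the filter were higher. The part of these cells in the members' ratios was not tested.

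**Figure D5:**
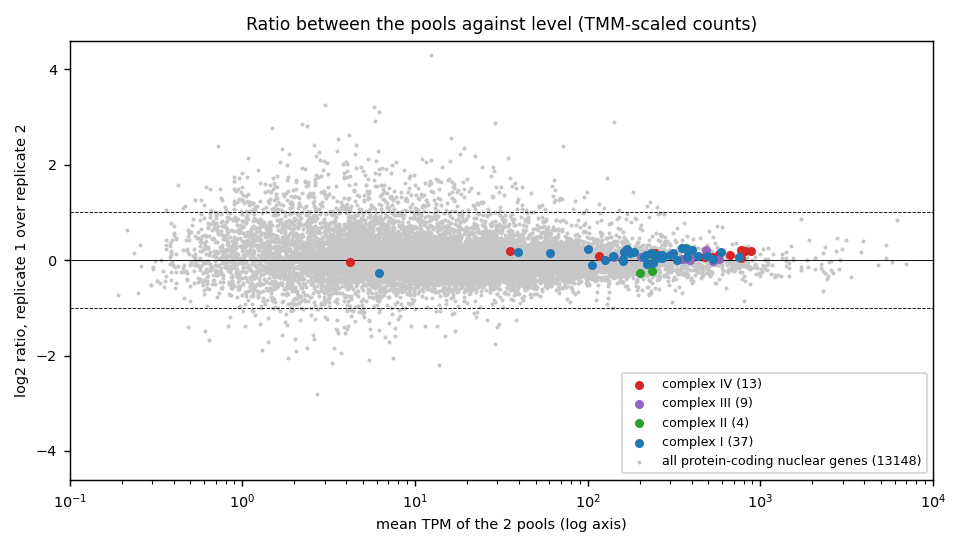
Log2 ratio of replicate 1 over replicate 2 from TMM-scaled counts against mean TPM (log axis) for the 63 subunit genes past the filter, coloured by complex, and for 13148 protein-coding nuclear genes in grey. Dashed lines mark a 2-fold difference. Most subunit genes lie at the high end of the levels, with Cox4i2 and Ndufa4l2 lower, and all lie within a narrow band around 0.

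Other genes of the pathway were set beside the members from fixed lists. The 17 genes named Atp5, mostly ATP synthase subunits, were all detected, with a median of 479 TPM and a range of 8.96 (Atp5s) to 1859 TPM (Atp5b). In TMM-scaled counts 12 of the 17 were higher in replicate 1, against 50.6% of all genes. Their summed deposited TPM was lower in replicate 1, with 9025 in replicate 1 and 9246 in replicate 2. Cycs, the cytochrome c that carries electrons between complexes III and IV, had 60.7 TPM in replicate 1 and 69.9 in replicate 2, below its electron donor Cyc1 in both pools. Cyct, the testis form, was listed at 0 in both pools.

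Assembly factors, which build the complexes but are not part of them, were all detected, and their medians lay well below those of the subunits. The 14 factors of complex I had a median of 34.0 TPM (10.5 for Nubpl to 73.0 for Ndufaf8), the 10 of complexes II and III 21.2 TPM (4.13 for Lyrm7 to 343 for Uqcc2) and the 19 of complex IV 39.0 TPM (6.11 for Sco2 to 193 for Coa3). The 12 regulators of respiratory genes had a median of 17.8 TPM. Nrf1 was the highest of them with 64.0 TPM in replicate 1 and 72.7 in replicate 2. The coactivators Ppargc1a and Ppargc1b were the lowest, at 1.63 and 1.41 TPM (Ppargc1a) and 1.06 and 1.45 TPM (Ppargc1b) in replicates 1 and 2. No gene of these lists that passed the filter was 2-fold apart between the pools.

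The mitochondrially encoded subunits of complexes I, III and IV had a median of 548 TPM over 11 genes, led by mt-Nd1 with 1503 TPM in replicate 1 and 1980 in replicate 2. Of the 10 past the filter, 2 were higher in replicate 1 in TMM-scaled counts, against 50.6% of all protein-coding nuclear genes. The median log2 ratio was -0.23, where the nuclear members had 0.09. With a library on each side this contrast has no test. The 3 mitochondrially encoded genes of complex IV differed among themselves. mt-Co1 had 774 TPM in replicate 1 and 1366 in replicate 2, mt-Co2 had 1170 TPM in replicate 1 and 1320 in replicate 2, and mt-Co3 had 703 TPM in replicate 1 and 638 in replicate 2, with log2 ratios of -0.74, -0.10 and 0.22. The nuclear Cox4i1 of the same complex had 847 TPM in replicate 1 and 778 in replicate 2.

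The members lay on 19 chromosomes, with the most on chromosome 7 (8 genes). Some were neighbours within 200 kb: Ndufs8 and Ndufv1 lay 94.6 kb apart on chromosome 19, and Ndufs7 and Uqcr11 146 kb apart on chromosome 10. Levels of such neighbours were alike for Ndufs8 and Ndufv1 (167 and 161 TPM on average) and differed for Ndufs7 and Uqcr11 (253 and 535 TPM). Some members overlap highly expressed genes on the opposite strand, such as Ndufs1 with Eef1b2 (410 TPM in replicate 1 and 511 in replicate 2) and Cox4i1 with Emc8 (248 TPM in replicate 1 and 303 in replicate 2), and reads of the shared bases could be counted for either where strand was not used.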

How the data were processed

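Total RNA over 200 nucleotides from 2 pools of embryonic hindbrain was extracted with the mirVana kit, per the labels' protocols, with aligner and quantifier not given in the sources used here. Deposited notes name assembly mm10 with annotation M4. Per the file headers, the gene and transcript tables hold expected counts, estimates that split ambiguous reads between genes. TPM, posterior mean TPM and FPKM are given per the file headers as well, and TPM has the same total in both libraries over all rows, spike-ins included. The deposited transcript tables also list each isoform's percent of its gene; the text gives percent values computed anew from TPM.

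Symbols, classes and coordinates came from GENCODE M21 on the same assembly, by identifier with versions dropped (42462 of 43346 gene rows matched). Expected counts were rounded for edgeR 4.0.16 (R 4.3.3), whose TMM factors gave log2 ratios of CPM, the counts scaled to library size, with a prior count of 2 for genes with a CPM of at least 1 in both pools. The ratio calculation was tested on simulated data. DESeq2 1.42.0 size factors, total count, spike-in scaling, deposited TPM, other prior counts, other length corrections and each pool left out were alternatives. Pseudogene copies were searched with BLAST 2.17.0. Python 3.11.15, pandas 2.3.3, numpy 2.4.6, scipy 1.17.1, Biopython 1.88 and matplotlib 3.10.9 were used.

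Values in each pool were given for the highest 5 and lowest 5 members of each complex, for each paralog pair and for members next to the detection level of 1 TPM. Some genes are not reported here by name, though counts and medians of members include them. The members, roles and lists were chosen with earlier results of these data known. No p-value was computed, since the series has 1 group, and intervals cover counting error only.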

Additional observations from a re-analysis of the deposited data

How the results depend on the processing

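Of 80 alternatives, 63 were classed as leaving the value in place, 14 as moving it and 3 as turning its direction. The limit was the spread between pools for ratios and folds, and 1.5 times for detected members. For members 2-fold apart it was an equal count, and for the median log2 ratio the SD over members (0.115). On deposited TPM that median was 0.0079 in place of 0.09, which lay within this limit. The spread came from the same 2 pools, so such a ratio or fold with a pool left out could hardly be classed otherwise. Settings without members under a mean TPM of 5 were classed as in place with no comparison. The ratio of medians of complex IV over complex I, 1.34, turned to 0.205 with geometric means of TPM + 0.1, which weigh the paralogs at 0, and to 0.702 with protein-coding transcripts alone. It was 1.21 on counts with no length correction, 1.67 with Ndufa4 counted in complex IV, 2.10 without members under 1 TPM, 2.42 without tissue-limited paralogs and 2.52 with coding transcripts alone and no such paralogs, the last chosen after the data were seen. The ratio of complex III, 1.65, was 1.56 on full length and 1.27 on counts with no length correction, and that of complex II, 1.00, was 2.16 on such counts and 1.23 with geometric means. The lowest paralog fold, Cox6b1 over Cox6b2 at 24.6, was 23.7 on posterior mean TPM and 32.7 with coding transcripts alone. With no length correction, Cox7a2 over Cox7a1 was 186 against 73.8 and Ndufa4 over Ndufa4l2 was 55.8 against 122. With spike-in scaling the median log2 ratio of members was -0.73 in place of 0.09, and 3 members were 2-fold lower in replicate 1 (Sdha, Sdhd and Ndufa4l2), where 25.8% of all genes were 2-fold apart. With either pool left out the ratios ranged from 1.31 to 1.37 for complex IV, 1.59 to 1.70 for complex III and 0.930 to 1.07 for complex II, the Cox6b fold from 24.4 to 24.8, and 64 members were detected each time. Causes other than those given by the construction of an alternative were not tested. No paired analysis was possible because the series has 1 group. A count of 0 allows up to 0.294 TPM for Cox8c in replicate 1 and 0.328 TPM in replicate 2.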
